A study of Danio rerio with 6 samples.

Results

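TRIM genes and their fish-specific relatives, the finTRIM and bloodthirsty genes, were followed in whole brains of adult zebrafish that were wild type (WT) or homozygous for chrna3 C246X. A gene was taken as a member when its symbol began with trim, ftr or btr and a number. This gave 143 of the 23678 genes in the deposited table, with 60 trim genes, 65 ftr (finTRIM) genes and 18 btr (bloodthirsty) genes. Of these, 140 had a mean value of at least 1 over the 6 libraries and were tested, made up of 59 trim, 64 ftr and 17 btr genes. The C246X allele was made with CRISPR/Cas9 in chrna3, the gene of a nicotinic acetylcholine receptor subunit found in neurons, and the letter X marks a premature stop codon. Polyadenylated RNA was sequenced in 3 libraries per genotype for a study of the response to alcohol, and the labels describe no alcohol treatment of these fish. The labels name no strain, sex, exact age or relatedness of the fish. They also do not say whether a library held 1 fish or a pool, so the p-values reflect the scatter of these 6 libraries alone, and that scatter may be technical.

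TRIM proteins carry a RING finger, 1 or more B-boxes and a coiled coil, and most are E3 ubiquitin ligases, which pick the proteins to which ubiquitin is attached. Some vertebrate TRIM proteins act in neurons or muscle, and others act in the pathway by which cells sense viral RNA and respond to interferon. The finTRIM genes are a large family of fish, first met among genes that rose in virus-infected trout cells, and most encode a C-terminal B30.2 domain that can recognise a target. The bloodthirsty genes are another fish expansion of the same kind, named after a zebrafish gene that is needed to form red blood cells.

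Each value is an estimated read number of a gene, scaled by 1 factor for its library, and library totals lay between 25655952 and 26794838. They are not divided by gene length, so levels are compared between libraries for 1 gene and not between genes. A difference is the mean of C246X less that of WT after log2(value + 1), which understates the change of genes with low values, and a gene was called when its Benjamini-Hochberg adjusted p in limma was under 0.05 over all 23104 tested genes. The transcript of chrna3 had values of 101.6, 28.1 and 55.1 in WT and 59.8, 40.7 and 57.4 in C246X, so it gives no check of the genotype labels. Over all tested genes, 22.5% were called, 11.1% higher and 11.4% lower in C246X, with a median difference of −0.008. In bulk RNA of a whole brain, fewer cells of a type and less RNA per cell cannot be told apart.

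Of the fish-specific ftr and btr genes that were called, most were lower in C246X, and the called trim genes were split about evenly. Of the 17 tested btr genes, 7 (41.2%) were called lower and 0 higher, with 0 higher at an unadjusted p under 0.05 and 0 higher in limma-voom. Of the 64 tested ftr genes, 14 (21.9%) were called lower and 4 (6.25%) higher. Of the 59 tested trim genes, 7 (11.9%) were called lower and 6 (10.2%) higher, close to the shares over all tested genes. These sums join sets that were divided by number after their values were seen. The 19 trim35-n genes had 3 lower and 1 higher (median −0.323). The 5 genes named trim101 to trim110 had 2 lower and 1 higher (median −0.392). The other 35 had 2 lower (5.71%) and 4 higher (11.4%), with a median of 0.128. Leaving out a library gave 1 to 2 lower and 1 to 5 higher among these 35. Differences between the sets were not tested. The median difference was −1.46 for btr, −0.64 for ftr and 0.059 for trim genes, and leaving out the genes with a genotype listed at 0 gave −1.45 for btr and −0.63 for ftr genes. Steep falls, called and below −2 on the log2 scale, made up 6 of the 17 btr genes, 8 of the 64 ftr genes, among them the one listed at 0 in every C246X library, and 1 of the 59 trim genes, against 2.48% of all tested genes.

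**Figure D1:**
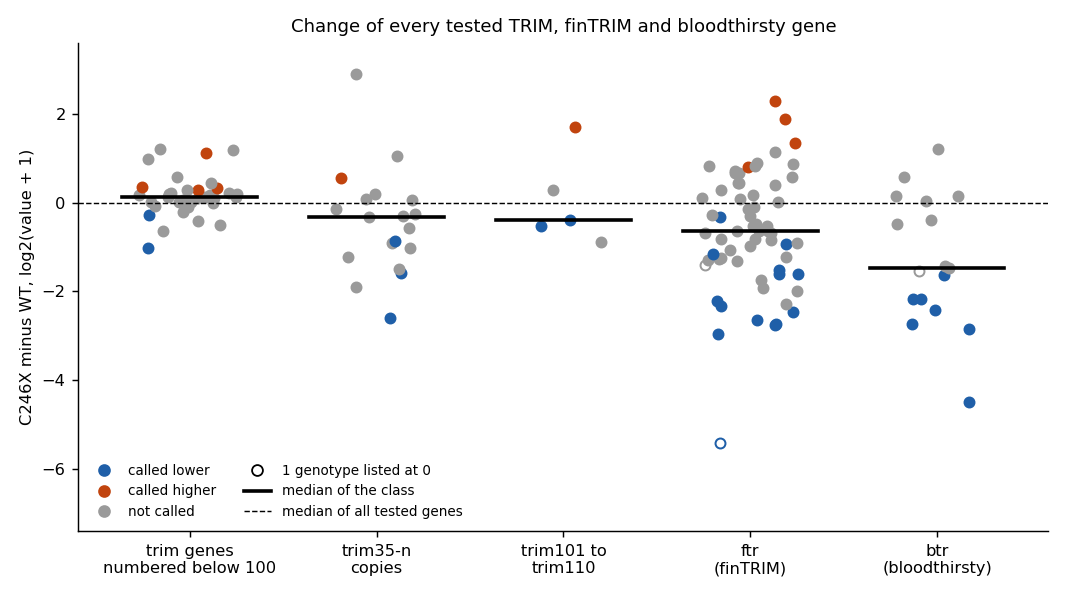
The difference between C246X and WT on the log2(value + 1) scale (vertical axis) is plotted for each of the 140 tested members, in 5 classes by name (horizontal axis). Thick lines are class medians, the dashed line is the median of all tested genes at −0.008, blue and orange points were called lower and higher, and open points have a genotype listed at 0 in all 3 libraries. The 7 called btr genes all lie below the dashed line, and 14 of the 18 called ftr genes do.

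The low level of many members limits these counts. A mean below 10 was found for 29 of the 64 tested ftr genes and 10 of the 17 btr genes, against 16 of the 59 trim genes. All 3 C246X libraries lay below all 3 WT libraries in 7 btr, 22 ftr and 9 trim genes, and above them in 1 btr, 6 ftr and 18 trim genes. Over all tested genes, 20.7% did not overlap in each direction, which is 41.4% together.

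Leaving out each library in turn changed how many members were called. The lower btr genes numbered 4 without WT replicate 3, C246X replicate 1 or C246X replicate 2. The lower ftr genes numbered 9 without WT replicate 3, 8 without C246X replicate 1 and 9 without C246X replicate 2, and the higher ftr genes 1 without C246X replicate 1 and 0 without C246X replicate 2. The higher trim genes numbered 2, 3 and 3 without C246X replicates 1, 2 and 3 in turn. The lower trim genes numbered 3 without WT replicate 3 and 4, 4 and 3 without C246X replicates 1, 2 and 3. Of the 140 tested members, 15 (10.7%) were called in the full fit and in all 6 fits with a library left out, the same share as the 10.7% over all tested genes. They made up 39.5% of the 38 called members, against 47.3% of all called genes. These were 4 lower btr genes, 8 lower ftr genes, 2 lower trim genes and 1 higher trim gene, and over all tested genes such calls were 5.49% lower and 5.18% higher.

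**Figure D2:**
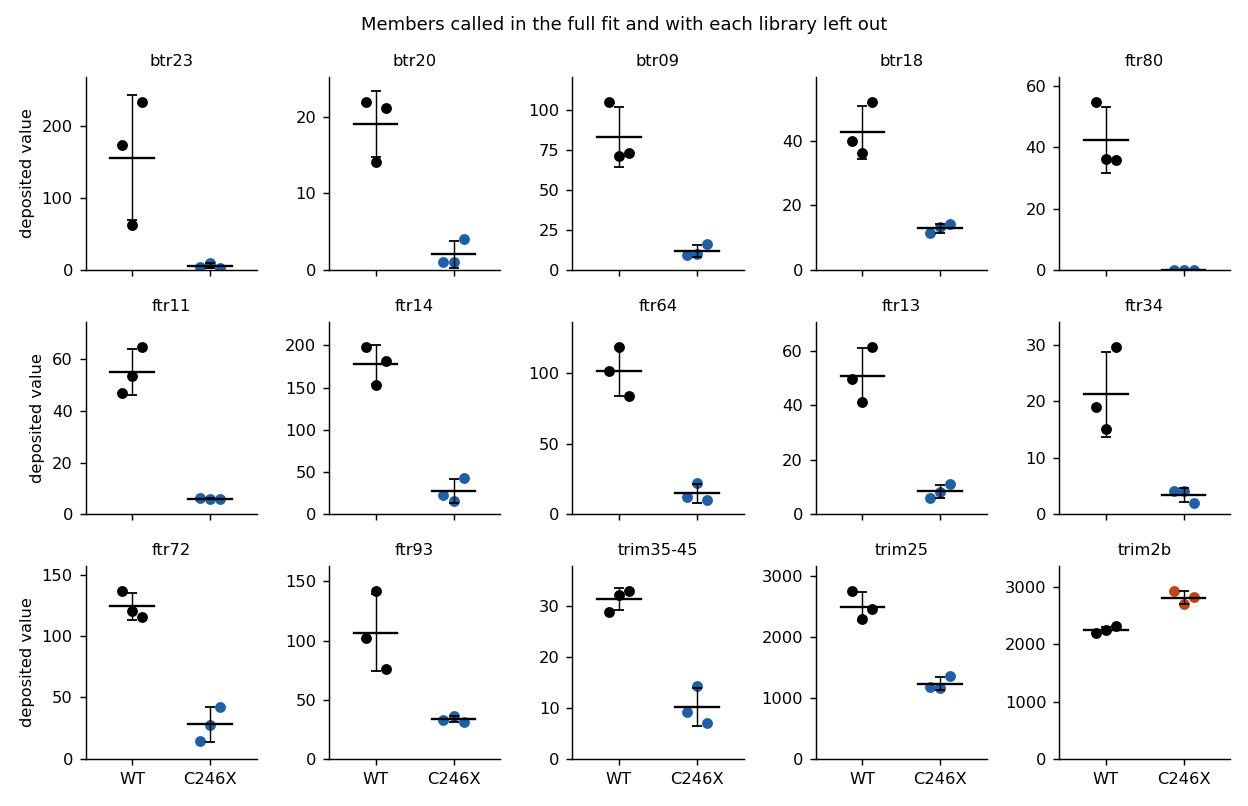
Each panel shows 1 of the 15 members that were called in the full fit and with each library left out, with the deposited value on the vertical axis (starting at 0, scaled per panel) and genotype on the horizontal axis. Points are libraries, long bars are means and thin bars are ± 1 SD over 3 libraries. The genotypes do not overlap in any panel, and trim2b is the one panel in which C246X is higher.

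Among the bloodthirsty genes, btr23 had the steepest fall. Its values were 173, 62.3 and 233 in WT and 4.13, 10.2 and 3.02 in C246X. The WT libraries were all higher than every C246X library but spread widely among themselves. The difference was −4.48 (95% interval −5.77 to −3.20, adjusted p = 0.00126), and the C246X mean was 3.7% of the WT mean. The gene btr09 had 105, 71.3 and 73.1 in WT and 9.29, 10.2 and 16.1 in C246X, with closer WT libraries and no overlap. It fell by 2.72 on the log2 scale (interval −3.42 to −2.02, adjusted p = 0.000774). The gene btr18 had 39.8, 36.3 and 51.9 in WT and 11.3, 13.2 and 14.1 in C246X, again with no overlap, and its difference was −1.64 (adjusted p = 0.00529). At a lower level, btr20 had 21.9, 14.1 and 21.2 in WT and 1.03, 1.02 and 4.03 in C246X, with a difference of −2.85 (adjusted p = 0.00589). These 4 btr genes were also called with each library left out.

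The other called bloodthirsty genes lost their call in most fits with a library left out. Such fits called 2986 to 4836 of all tested genes, against 5207 in the full fit. The values of btr07 were 20.9, 177 and 110.2 in WT and 9.29, 15.3 and 16.1 in C246X. Its WT replicate 1 stood much closer to the C246X libraries than to the other WT libraries, though the genotypes did not overlap. The difference was −2.41 (adjusted p = 0.041), and the call was lost without WT replicate 2, WT replicate 3 or any C246X library (adjusted p up to 0.133), in limma-voom (0.158) and with robust moderation (0.0654). Both btr22 and btr25 were low, with means of 6.08 ± 3.48 and 4.86 ± 1 in WT and 0.668 ± 1.16 and 0.36 ± 0.562 in C246X (± SD, n = 3). They had differences of −2.18 and −2.17 (adjusted p = 0.0484 and 0.0241). The call of btr22 was lost without WT replicate 2, WT replicate 3, C246X replicate 1 or C246X replicate 2 (up to 0.138), with a pseudocount of 0.1 or 5 and in limma-voom, and that of btr25 without WT replicate 1, WT replicate 3, C246X replicate 1 or C246X replicate 2 (up to 0.0736).

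Of the 10 btr genes that were not called, btr32 varied most between libraries of the same genotype. It had 58.7, 0 and 72 in WT and 50.6, 27.5 and 3.02 in C246X, so in WT a library listed at 0 stood beside the highest libraries of all 6, and the C246X libraries lay between them. Its difference was 0.15 with an interval of −3.61 to 3.91 (adjusted p = 0.961). In the other 9 uncalled btr genes the mean value over 6 libraries was at most 11.2. Because the family is named for red cell formation, erythroid marker genes were counted beside it. Of 6 tested erythroid genes, 0 were called in limma or in limma-voom, where limma called 22.5% of all tested genes. At an unadjusted p under 0.05, 1 was lower, against 4336 of all 23104 tested genes. Without WT replicate 2, 1 erythroid gene was called lower. The summed values of the erythroid genes were 3317 to 7131 in WT and 3350 to 7853 in C246X, and none was at 0 in all libraries.

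Among the finTRIM genes, ftr80 was listed at 0 in every C246X library. Its WT values were 54.8, 36.2 and 36, so no fold is given, and its adjusted p was 0.000126. The gene ftr11 had 46.8, 53.3 and 64.6 in WT and 6.19, 6.11 and 6.04 in C246X. The C246X libraries were nearly the same and lay far below all WT libraries, with a difference of −2.96 (interval −3.62 to −2.30, adjusted p = 0.000403). The values of ftr14 were 198, 153 and 181 in WT and 22.7, 16.3 and 43.3 in C246X. The C246X mean of ftr14 was 15.5% of the WT mean, with a difference of −2.75 (interval −3.52 to −1.98, adjusted p = 0.00113). The values of ftr64 were 102, 119 and 83.7 in WT and 12.4, 22.4 and 10.1 in C246X, with a difference of −2.74 (interval −3.49 to −1.99, adjusted p = 0.00102). In all 4 genes the genotypes did not overlap and the call was kept with each library left out.

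Another 4 finTRIM genes fell in the full fit and in all 6 fits with a library left out. The values of ftr13 were 49.8, 41.2 and 61.4 in WT and 6.19, 8.15 and 11.1 in C246X (difference −2.47, adjusted p = 0.0016). Those of ftr72 were 136, 121 and 115 in WT and 14.4, 27.5 and 42.3 in C246X (difference −2.22, adjusted p = 0.00401). In both genes every WT library was above every C246X library, and C246X replicate 3 was the highest of its genotype. The values of ftr93 were 103, 142 and 76.3 in WT and 33, 36.7 and 31.2 in C246X (difference −1.60, adjusted p = 0.00407), with a wide spread in WT and a narrow one in C246X. The values of ftr34 were 18.9, 15.1 and 29.7 in WT and 4.13, 4.07 and 2.01 in C246X (difference −2.32, adjusted p = 0.00737).

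The remaining 6 lower finTRIM genes were called with less margin. The gene ftr83, whose product raises interferon and protects against viruses when overexpressed in fish, had 91.6, 53.3 and 78.4 in WT and 33, 37.7 and 42.3 in C246X. Its C246X mean was 50.6% of the WT mean, and its difference was −0.94 (interval −1.52 to −0.35, adjusted p = 0.0339). The call was lost without WT replicates 1 or 3 or any C246X library, with an adjusted p of up to 0.106. The gene ftr82 had 390.3, 407 and 394 in WT and 297, 349 and 302 in C246X, a small difference of −0.33 (interval −0.55 to −0.11, adjusted p = 0.0421). Its libraries did not overlap, but the call was lost without any WT library or without C246X replicates 1 or 3 (up to 0.13). At lower values, ftr38, ftr91, ftr89 and ftr16 had differences of −2.65, −1.61, −1.52 and −1.15 (adjusted p = 0.0211, 0.0445, 0.0366 and 0.0382). Those of ftr91 and ftr16 were lost without any 1 of the 6 libraries (up to 0.127 and 0.107). Leaving out WT replicate 2 or 3 or C246X replicate 1 or 2 ended the call of ftr38 (up to 0.0738), and leaving out WT replicate 1 or 3 or any C246X library ended that of ftr89 (up to 0.105).

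A smaller set of 4 finTRIM genes rose. The values of ftr19 were 13.9, 17.1 and 41.3 in WT and 72.2, 120.2 and 64.5 in C246X. Every C246X library was above every WT library, with a difference of 1.89 (interval 0.91 to 2.87, adjusted p = 0.0168), and the C246X mean was 3.55 times the WT mean. The values of ftr02 were 72.7, 62.3 and 75.2 in WT and 104, 133 and 133 in C246X, with a difference of 0.80 (interval 0.40 to 1.21, adjusted p = 0.0152). The gene ftr15 had 13.9, 8.04 and 7.41 in WT and 33, 28.5 and 17.1 in C246X, and ftr69 had 0.996, 0 and 1.06 in WT and 10.3, 6.11 and 5.04 in C246X. Neither gene overlapped between genotypes, and their differences were 1.33 and 2.30 (adjusted p = 0.0428 and 0.0199). Calls were lost without C246X replicates 2 or 3 for ftr02 (up to 0.0623) and without C246X replicates 1 or 2 for ftr19 and ftr69 (up to 0.0649 and 0.0828). That of ftr15 was lost when WT replicate 2 or 3 or C246X replicate 1 or 2 was left out (up to 0.144).

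Among the finTRIM genes with the highest mean values, ftr82 was called lower, and ftr67, ftr51, ftr90 and ftr23 were not called. Over all tested genes 22.5% were called, so most were not called there either. The gene ftr67 had 1252, 1069 and 1040.1 in WT and 1246, 1296 and 1257 in C246X, with overlapping libraries and a difference of 0.18 (interval −0.0047 to 0.37). The values of ftr51 were 398, 537 and 378 in WT and 499, 510.3 and 261 in C246X (difference −0.093, interval −0.69 to 0.50), and C246X replicate 3 was the lowest of all 6. The values of ftr90 were 142, 259 and 121 in WT and 181, 295 and 335 in C246X (difference 0.66, interval −0.064 to 1.39), and those of ftr23 gave a difference of 0.28 (interval −0.22 to 0.79). Adjusted p for these 4 genes was 0.146, 0.832, 0.171 and 0.387, and it was 0.0239 for ftr67 without WT replicate 1 and 0.0404 for ftr90 without WT replicate 2. The 46 uncalled ftr genes had a median mean value of 8.19, and those without a genotype listed at 0 had differences from −2.29 to 1.13.

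Among TRIM genes that act against viruses in mammals, trim25 fell. TRIM25 attaches ubiquitin to the viral RNA sensor RIG-I in mammals. The values of trim25 were 2754, 2296 and 2459 in WT and 1181, 1173 and 1356 in C246X. All WT libraries were above all C246X libraries, and the C246X mean was 49.4% of the WT mean. The difference was −1.02 (interval −1.22 to −0.81, adjusted p = 0.000239), and it was called with each library left out. Of 4 tested genes on the antiviral list, 1 was called lower and 0 higher, against 11.4% and 11.1% of all tested genes. Both TRIM8 copies, whose mammalian counterpart regulates cytokine signalling, were not called, with means of 2528 ± 110.2 in WT and 2567 ± 143 in C246X for ENSDARG00000060729 and 1017 ± 81.6 and 1089.7 ± 66.4 for ENSDARG00000090512 (± SD, n = 3). Nor was TRIM13, which encodes a protein anchored in the endoplasmic reticulum, with 4149.6 ± 180.4 in WT and 4138 ± 224 in C246X. Their intervals were −0.13 to 0.17, −0.089 to 0.29 and −0.15 to 0.14. Genes named trim14, trim21 and trim35 were not analysed here.

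Most genes of the interferon pathway and most microglia markers were also lower in C246X. The list of 32 tested interferon genes held both signalling genes and interferon-induced genes such as isg15 and RSAD2. Of these 32, 22 were called lower and 1 (crfb1, difference 1.37) higher, against 11.4% and 11.1% of all tested genes. Their median difference was −1.56. The ubiquitin-like gene isg15 had 2356, 2511 and 2172 in WT and 49.5, 46.9 and 76.6 in C246X, a difference of −5.36 (adjusted p = 1.84e-06). The viral RNA sensor gene IFIH1 had 295.7, 228.1 and 230.9 in WT and 37.1, 47.9 and 50.4 in C246X, and the gene for the interferon-induced regulator IRF7 had 355.5, 319.5 and 279.6 in WT and 41.3, 45.8 and 37.3 in C246X. Both had no overlap between genotypes, with differences of −2.45 and −2.91. The signalling genes mavs and TBK1, which act between RNA sensors and interferon, were not called, with differences of −0.11 and −0.14. The summed values of the 32 genes were 27467 to 29685 in WT and 11301 to 11870 in C246X. Without each library in turn, 21 to 22 of them were called lower.

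Marker genes of cell types are read against the 11.4% of all tested genes that were called lower and the 11.1% called higher. The microglia and macrophage list had 25 names, of which mpeg1.1, mpeg1.2 and mfap4 were not analysed. Of the 22 tested microglia and macrophage markers, 18 were called lower and 1 (cybb) higher, with a median of −1.24. Their summed values were 25970 to 28250 in WT and 14670 to 17841 in C246X, and none was at 0 in all libraries. Of 17 lymphocyte and neutrophil markers, 6 were called lower and 1 higher, with sums of 748 to 961 in WT and 449 to 578 in C246X and none at 0 in all libraries. The lower lymphocyte and neutrophil markers numbered 3 without WT replicate 3. Higher ones numbered 0 without any 1 of the WT libraries and without C246X replicates 1 or 2. The part of these cells and of the interferon pathway in the lower trim25, ftr and btr values was not tested. Neuron markers had close sums, 285329 to 304689 in WT and 292089 to 304614 in C246X, with 1 higher and 3 lower of 14. Where 2 genes shared a listed symbol both were counted, so 7 radial glia names gave 9 genes, with 2 each for FABP7, SLC1A2 and GLUL. Of these 9 radial glia markers 1 was called higher and 4 lower, with sums of 166818 to 180845 in WT and 161156 to 175443 in C246X. The 4 lower ones were both FABP7 genes, 1 of the 2 GLUL genes and S100B. Sums of this kind follow mainly the genes with the highest values, so a fall of a lower gene barely moves them. Of 6 oligodendrocyte markers 1 was called higher and 3 lower, and their sums did not overlap, with 287203 to 357532 in WT and 204939 to 232633 in C246X. The part of oligodendrocytes in the members' values was not tested. Leaving out a library gave 1 to 4 lower neuron markers, 2 to 4 lower radial glia markers and 2 to 4 lower oligodendrocyte markers, with the fewest for neuron markers without C246X replicate 1.

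RING ligases work with E1 and E2 enzymes, which activate and carry ubiquitin, so these were counted too. Of 30 tested E1, E2 and ubiquitin genes, 4 were called lower and 1 higher, with a median of −0.073, against 11.4% and 11.1% of all tested genes. The gene uba7, whose product activates the isg15 protein, had 119.5, 119.6 and 145.1 in WT and 46.4, 45.8 and 39.3 in C246X (difference −1.52, adjusted p = 0.00103). The polyubiquitin gene ubb (ENSDARG00000093313) had 1883, 2915 and 3461 in WT and 1294, 1388 and 1287 in C246X (difference −1.01, adjusted p = 0.00809). Another gene of that symbol, UBB (ENSDARG00000002369), was not called (difference −0.089, adjusted p = 0.576). Its values were 2323, 2705 and 3171 in WT and 2519, 2590 and 2536 in C246X. The E2 gene ube2d2 was also called lower, with a difference of −0.38, and the E1 gene UBA6 was called higher, with 0.34. Of these genes, 2 were called lower without C246X replicate 2, and 0 were called higher without C246X replicates 1, 2 or 3 and 2 without WT replicate 2.

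Of 10 tested conserved TRIM genes known from neurons, 9 had a positive difference under each scaling tried, 3 were called higher and 1 lower, against 11.1% and 11.4% of all tested genes. Outside TRIM67 the differences were at most 0.44 in size. The gene trim2b, a copy of TRIM2, whose product binds neurofilament light chain in mouse, had 2198, 2243 and 2313 in WT and 2926, 2701 and 2818 in C246X. Every C246X library was above every WT library, with a difference of 0.32 (interval 0.19 to 0.45, adjusted p = 0.00575), and the call held with each library left out. TRIM67, whose mouse counterpart works with the netrin receptor DCC, had 76.7, 49.2 and 62.5 in WT and 167, 108 and 139 in C246X. Its C246X mean was 2.2 times the WT mean, with a difference of 1.12 (interval 0.59 to 1.66, adjusted p = 0.0118, and 0.052 without C246X replicate 1). Of the 2 TRIM46 copies, whose mammalian counterpart organises microtubules at the start of the axon, ENSDARG00000012367 had 759.7, 966 and 951 in WT and 1131, 1189.6 and 1079.9 in C246X. It was called higher with a difference of 0.35 (adjusted p = 0.0396), but not without WT replicate 3 or any C246X library (up to 0.129), nor under upper-quartile or total-count scaling.

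The copy of TRIM46 with the identifier ENSDARG00000058649 had 791, 875 and 837 in WT and 972, 989 and 942 in C246X, also without overlap. Its difference was 0.21 (interval 0.06 to 0.37, adjusted p = 0.054), and it missed the threshold, but passed without WT replicate 2 (0.0466) and with the filter of 1 CPM in 3 libraries (0.0476). The TRIM3 copies, relatives of TRIM2 with an NHL domain, differed in sign. ENSDARG00000005397 had 4017, 3998 and 3668 in WT and 3413, 3137 and 3127 in C246X and was called lower (difference −0.27, adjusted p = 0.0183, and up to 0.0746 without C246X replicates 2 or 3). ENSDARG00000063711 had 3096, 2459 and 2864 in WT and 3352, 3079 and 3076 in C246X and was not called (difference 0.18, interval −0.022 to 0.38). The difference between the copies was not tested. TRIM9, which like TRIM67 acts with DCC in mouse, had 7489, 7248 and 6422 in WT and 8085, 7793 and 7850.1 in C246X (difference 0.17, adjusted p = 0.11). TRIM2, TRIM32, known from neural progenitors and muscular dystrophy, and TRIM36, a microtubule-associated protein, had differences of 0.44, 0.20 and 0.12 (adjusted p = 0.0671, 0.107 and 0.184), and TRIM2 passed without WT replicate 1 (0.0444). The genotypes did not overlap in 9 of the 10 neuronal genes, 8 of them with C246X higher, where 41.4% of all tested genes did not overlap and 20.7% did so with C246X higher. Without 1 library the higher calls numbered 1 to 4, with 1 without C246X replicate 1, and the lower call was lost without C246X replicates 2 or 3.

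**Figure D3:**
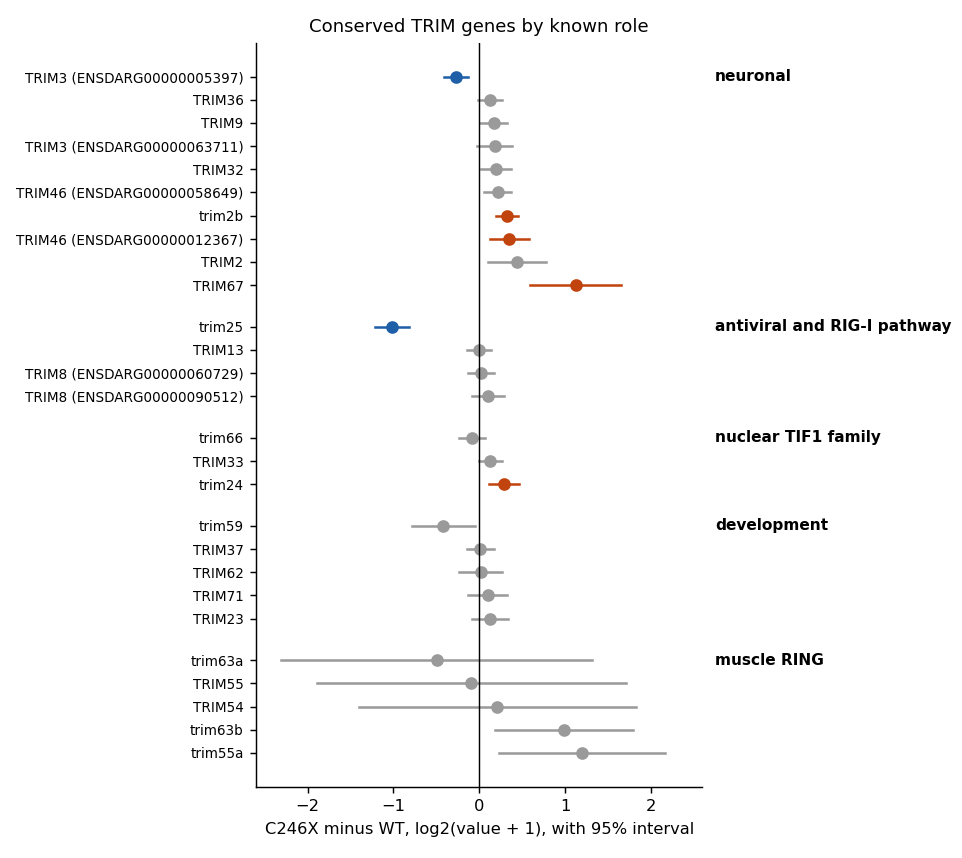
Differences between C246X and WT on the log2(value + 1) scale (horizontal axis) are plotted with 95% intervals for the 27 tested conserved TRIM genes on 5 role lists (vertical axis). Orange and blue mark genes called higher and lower, and grey marks genes not called. The intervals of trim25 and TRIM67 lie farthest from 0 among the called genes, and the muscle RING genes have the widest intervals.

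In the TIF1 family of nuclear cofactors, trim24 had 966, 1003 and 928 in WT and 1139, 1288 and 1107 in C246X. It was called higher (difference 0.28, interval 0.11 to 0.46, adjusted p = 0.0323), but not without WT replicates 1 or 3 or any C246X library (up to 0.111) nor under total-count scaling or in limma-voom. TRIM33, needed for blood formation in zebrafish, had 1869.9, 1962 and 1812 in WT and 2077, 2112 and 1976 in C246X and was not called (adjusted p = 0.158), though its libraries did not overlap. The gene trim66 was not called either (difference −0.083, interval −0.23 to 0.068). A gene named trim28 was not analysed here.

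None of 5 tested TRIM genes of the development list was called in limma or in limma-voom, where limma called 22.5% of all tested genes. At an unadjusted p under 0.05, 1 was lower, against 4336 of all 23104 tested genes. That one, trim59, gave 347.5, 246.2 and 271 in WT and 240.4, 220.0 and 183 in C246X (difference −0.42, adjusted p = 0.1). TRIM71, a repressor of messenger RNAs and a target of let-7, averaged 1041 ± 136 in WT and 1107 ± 45 in C246X (± SD, n = 3). TRIM37, which acts at centrioles and peroxisomes, had 2937 ± 168 and 2963 ± 182. TRIM23, which carries an ARF domain, and TRIM62 (ENSDARG00000060901) had intervals of −0.082 to 0.33 and −0.23 to 0.27.

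The muscle RING genes, whose products sit in the sarcomere, were low in these brains. None of 5 was called in limma or in limma-voom, where limma called 22.5% of all tested genes. At an unadjusted p under 0.05, 2 were higher, against 4092 of all 23104 tested genes. Low genes are called less often. Of all tested genes, 3.57% were called higher and 6.29% lower at means from 1 to 10, and 6.47% and 14.4% at 10 to 100. The values of trim55a were 5.97, 9.04 and 5.3 in WT and 22.7, 10.2 and 19.1 in C246X, and those of trim63b were 7.97, 9.04 and 13.8 in WT and 25.8, 17.3 and 20.1 in C246X. In both genes every C246X library was above every WT library, with adjusted p of 0.0768 and 0.0784. The other 3 genes, trim63a, TRIM54 and TRIM55, had means of at most 3.76 in either genotype. Skeletal muscle markers had 1 called higher and 1 lower of 12 tested, against 11.1% and 11.4% of all tested genes. Each call was lost without 1 or more libraries. The markers summed to 1171 to 1787 in WT and 1368 to 2171 in C246X, with none at 0 in all libraries. Their part in the values of trim55a and trim63b was not tested.

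Among trim genes with fish-type numbers, 19 tested trim35-n genes formed the largest set, with 3 called lower, 1 higher and a median of −0.32. Their shares, 15.8% lower and 5.26% higher, stand against 11.4% and 11.1% of all tested genes. The values of trim35-45 were 28.9, 32.2 and 32.8 in WT and 9.29, 14.3 and 7.05 in C246X, with no overlap and a call in all 6 fits with a library left out. Its difference was −1.58 (interval −2.35 to −0.80, adjusted p = 0.0134). The gene trim35-39 had 86.6, 65.3 and 104 in WT and 47.5, 42.8 and 46.3 in C246X (difference −0.87, adjusted p = 0.0268), and trim35-10 had 12.9, 14.1 and 15.9 in WT and 0, 7.13 and 1.01 in C246X (difference −2.59, adjusted p = 0.0383). In the opposite direction, trim35-40 had 172, 148 and 169 in WT and 224, 220.0 and 277 in C246X (difference 0.55, adjusted p = 0.0237). The gene trim35-1, picked out after its values were seen, had 27.9, 63.3 and 2.12 in WT and 125, 142 and 134 in C246X. It had the most positive difference of all tested members, 2.90 (interval 0.75 to 5.05), with closely spaced C246X libraries and widely spread WT libraries, and missed the threshold (adjusted p = 0.0583). It passed with a pseudocount of 5 (0.0372), in limma-voom (0.0292), and without WT replicate 2 (0.0196) or WT replicate 3 (0.021).

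Outside trim35-45, the called trim35-n genes lost their call in most fits with a library left out. That of trim35-40 was lost without WT replicate 2, WT replicate 3, C246X replicate 1 or C246X replicate 3 (up to 0.0861). That of trim35-39 was lost without WT replicates 1 or 3 or any C246X library (up to 0.0859), and that of trim35-10 without any WT library or C246X replicates 1 or 3 (up to 0.108). Their lower calls numbered 1 without WT replicate 3, C246X replicate 1 or C246X replicate 3.

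Of 5 tested genes named trim101 to trim110, 1 was called higher and 2 lower, against 11.1% and 11.4% of all tested genes. The gene trim108 had 26.7, 12.1 and 18 in WT and 55.3, 85.6 and 48 in C246X, so its C246X mean was 3.33 times the WT mean. Its difference was 1.71 (interval 0.89 to 2.53, adjusted p = 0.0124, and 0.0508 without C246X replicate 2). The gene trim105 had 496, 519.5 and 541 in WT and 387, 400.3 and 304 in C246X (difference −0.52, adjusted p = 0.0166, and 0.0555 without WT replicate 3). The gene trim107 had 371, 329.6 and 391 in WT and 255, 304 and 273 in C246X (difference −0.39, adjusted p = 0.038), and its call was lost without WT replicates 1 or 3 or any C246X library (up to 0.121). None of the 3 overlapped between genotypes.

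Many finTRIM and bloodthirsty genes lie next to each other, and neighbours were set side by side. Gene order came from a table of the GRCz12tu assembly, not the GRCz11 build of the reads, so no positions are given, and 119 of the 143 members (83.2%) could be placed. Runs of 3 or more members with at most 1 other protein-coding gene between neighbours held 32 members in 7 runs. The longest run, from ftr38 to ftr95, had 9 members, all with a negative difference from −2.65 to −0.53, and 2 of them, ftr38 and ftr34, were called lower. The means of the run were at most 12.3. Of all 64 tested ftr genes, 43 had a negative difference and 21.9% were called lower. In the btr23 to btr26 run all 4 differences were negative, from −4.48 to −1.43, and 2 were called lower. Of all 17 tested btr genes, 12 had a negative difference and 41.2% were called lower. Whether neighbours share a direction more than other members was not tested. Neighbours did not always share a direction. The genes ftr13 and ftr14 were called lower, and ftr15 beside them was called higher. In the run that holds ftr72 and ftr91, both called lower, ftr73 had a difference of −0.82, and ftr76 and ftr88 had 0.83 and 0.90 (adjusted p = 0.201, 0.286 and 0.124). Without WT replicate 2, ftr88 passed (0.0455). The uncalled genes of that run are named after their values were seen.

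**Figure D4:**
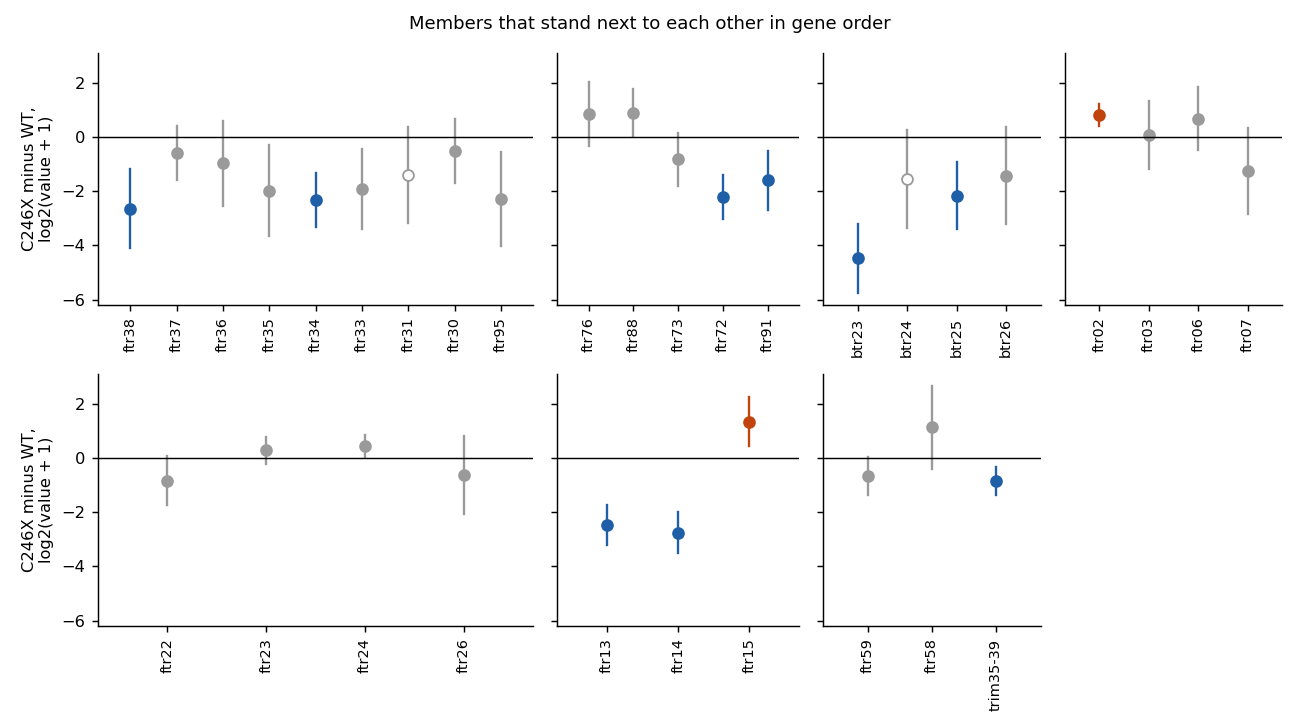
Each panel is 1 of 7 runs of neighbouring members in the GRCz12tu gene order, with genes along the horizontal axis and the difference between C246X and WT on the log2(value + 1) scale, with its 95% interval, on the vertical axis. Blue and orange mark genes called lower and higher, grey marks genes not called, and open points have a genotype listed at 0. All 9 genes of the first run and all 4 of the btr23 run lie below 0, and ftr15 lies above 0 beside ftr13 and ftr14 below it.

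Near-identical copies can share reads, and no source used here says how the reads were divided among copies. Values of this kind appear as fractions of a read. Of 116 tested members with a value above 0 and below 300 in 1 or more libraries, 7 (6.03%) had a value that was not a whole multiple of the read step within 0.03 or was a small fraction of 1 read, against 917 of 13563 such genes overall (6.76%). They were ftr99, trim35-33, trim108, btr22, btr25, btr18 and btr26, of which trim108 was called higher and btr22, btr25 and btr18 lower, so these 4 calls are uncertain. A whole value does not show that no reads were moved between copies. The table holds pairs that share 1 symbol, and the 2 TRIM3, TRIM46, TRIM62 and TRIM8 copies are therefore given with their Ensembl identifiers.

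The members near the minimum mean of 1 were close to undetected. Just below it were ftr42, with a mean of 0.848, and btr01 and a TRIM62 copy (ENSDARG00000095536), both with 0.344. Just above it were trim35-13, with a mean of 1.02, and ftr31, with 1.19. No member was at 0 in all 6 libraries. Of the 59 tested trim genes 46 were not called, with differences from −1.90 to 2.90. Of the 17 btr genes 10 were not called, with differences from −1.46 to 1.205 among those without a genotype listed at 0. Over all 23104 tested genes, 17897 were not called.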

How the data were processed

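Whole-brain polyadenylated RNA of adult zebrafish was read as pairs of 150 bp in 3 WT and 3 C246X libraries. Per the submitters' processing notes, reads were aligned with STAR to GRCz11; no source used here names the counter, the annotation or the scaling. The deposited signal values behave as estimated reads divided by 1 factor per library, since 94.8% to 95.1% of values below 300 are whole multiples of a step, within 0.03. As they are not all whole, edgeR and DESeq2 were not run, and the test for normalized values was used.

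The scale was log2(value + 1). The 23104 genes with a mean of at least 1 were fitted by genotype with limma 3.58.1 in R 4.3.3, with a mean-variance trend, and Benjamini-Hochberg adjusted over all of them, with 0.05 as the threshold. The fit was also run on simulated data, with the same spread setting for every gene and changes planted only in genes with a mean of at least 20. Of the 140 tested members, 70 reach that mean, and the simulation does not cover changes in the others. Alternatives were 3 other scalings, 2 other filters, pseudocounts of 0.1 and 5, limma-voom on estimated reads, robust moderation, a replicate block, and each library left out.

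Of the genes, 22274 had a symbol in the gene-name table. Named members were the called ones, the 5 with the highest mean in each class, the conserved TRIM genes on role lists, and those next to the minimum mean; others are marked. Values of some listed genes are not reported here. Members, lists and rules were chosen with earlier results of these data known, and the division of trim genes by number was made after their values were seen. Tables used pandas 2.3.3 and figures matplotlib 3.10.9, under Python 3.11.15.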

Additional observations from a re-analysis of the deposited data

How the results depend on the processing

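The lower btr genes numbered 7, and 3 with the filter of 1 CPM in 3 libraries, which also left 2 of 4 higher and 10 of 14 lower ftr genes. The 27 called members that this filter kept in the test were all still called, and the other called members were not tested under it. With the replicate number as a block 9 of 14 lower ftr genes were called, and ftr16, ftr82, ftr83, ftr89, ftr91, trim107 and btr22 lost their call, while trim35-1 gained one (adjusted p = 0.0402). Same-numbered libraries of the genotypes deviated together weakly (r = 0.073, 0.048 and 0.055), and each correlated best with its own number. Some skeletal muscle markers, such as ckma (26.9, 59.3 and 127 in WT, 32, 93.7 and 172 in C246X), rose with the number in both genotypes. Others, such as myhz2, did not. The main fit assumed no pairing, and the block fit gives the counts with it. Total-count scaling left 4 higher trim genes beside 7 lower ones, against 6 and 7, losing trim24 and TRIM46 (ENSDARG00000012367). It moved the median of all genes by −0.023, and it gave 7 lower E1, E2 and ubiquitin genes in place of 4. In limma-voom btr07, btr22, ftr15, ftr91, TRIM46 (ENSDARG00000012367) and trim24 were not called. With a pseudocount of 0.1, btr22, ftr69, ftr89, ftr91 and trim35-10 were not called. Counts with each library left out ran from 2 to 7 for higher and 3 to 6 for lower trim genes, 0 to 5 for higher and 8 to 11 for lower ftr genes, 4 to 7 for lower btr genes, and 2986 to 4836 for all tested genes.

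No called member changed sign under any alternative that tested it. Alternatives were computed for 32 of the 102 uncalled members, and among these btr32 turned to −0.25 with a pseudocount of 5 and TRIM55 to 0.55 with one of 0.1. Under upper-quartile scaling, total-count scaling and limma-voom in turn, TRIM37 turned to −0.0128, −0.0116 and −0.0108, TRIM62 (ENSDARG00000060901) to −0.0087, −0.0075 and −0.0088, and TRIM8 (ENSDARG00000060729) to −0.0037, −0.0025 and −0.0027. With each library left out, differences ran from −1.87 to 1.23 for btr32, −0.26 to 0.22 for ftr51, −0.0465 to 0.0303 for TRIM13, −0.0378 to 0.0415 for TRIM37, −0.46 to 0.55 for TRIM54, −0.87 to 0.30 for TRIM55, −0.0496 to 0.0929 for TRIM62, −0.017 to 0.16 for TRIM71, −0.0026 to 0.0687 for TRIM8 and −1.23 to 0.37 for trim63a. The cause of these changes was not tested; the filter of 1 CPM in 3 libraries leaves fewer low genes to test. Depth limits members with means near 1, where 1 read is about 1 unit.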
